A study of Rattus norvegicus with 12 samples.

Results

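GS_diff2 cells were compared with GS cells, 3 libraries against 3, out of the 12 libraries of the series. Membership came from the sample labels alone, and no measured value chose a library. Both groups are rat cardiac fibroblasts, taken from heart and kept as primary cultures, that were immortalized under viral overexpression of Sall4 and Gata4. GS libraries come from cells labelled undifferentiated and not treated. GS_diff2 libraries come from GS cells treated with CMM medium plus EGM2 solution, which the labels call a cardiomyocyte and endothelial differentiation. The remaining groups serve only as reference levels: GS_diff1 is the same cells in CMM medium without EGM2, and RCF is the untreated parental fibroblasts, which carry no viral factor. The labels give no rat strain, age, time in medium or dose, and they name no GS culture matched to GS_diff2 for time or cell density, so an effect of the media cannot be told apart from one of time or density. They call the replicates biological without saying whether these were separate isolations of cells, so p-values cover the spread between these cultures.

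As background, Sall4 is a DNA-binding factor known from early embryos and the germ line, and Gata4 belongs to the GATA family and acts in precursors of heart and endoderm. EGM2 is the usual name of an endothelial growth medium that is sold with growth factors, among them vascular endothelial, fibroblast, epidermal and insulin-like growth factors, and with a glucocorticoid. The labels do not list what the EGM2 solution or the CMM medium contained here. Endothelial cells line vessels and are defined by receptors and junction proteins such as Kdr, Cdh5, Pecam1 and Cldn5, while cardiomyocytes are defined by sarcomere proteins such as cardiac troponins and myosin heavy chains.

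The 6 libraries held 16255682 to 22763665 counts. Levels below are normalised read counts (CPM, counts scaled to one library size), given for each library or as mean ± SD over n = 3 libraries, and folds and log2 fold changes (± standard error) come from one edgeR quasi-likelihood fit over all 12 libraries. A gene was called at a Benjamini-Hochberg adjusted p under 0.05 over the 14399 genes tested. CPM depends on transcript length, so levels are compared within a gene only. The first principal component of the 6 libraries held 78.4% of the variance and separated the groups, and the second (6.09%) had GS replicates 2 and 3 at its ends. The GS libraries stood apart from all other libraries in several respects. Genes of mitochondrial DNA took 0.244 ± 0.0021% of their counts, against 1.83 ± 0.034% in GS_diff2, 1.59 ± 0.10% in GS_diff1 and 2.21 ± 0.039% in RCF. The 10 most abundant genes took 13.6 ± 0.15% of GS counts, 8.71 ± 0.037% of GS_diff2 counts, 11.1 ± 0.096% of GS_diff1 counts and 9.77 ± 0.024% of RCF counts. The scaling factors were 0.956 to 0.961 in GS and 0.999 to 1.028 in the other libraries, and small nucleolar RNA was lowest in GS, as given below with the mitochondrial genes.

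Most tested genes differed between the groups. Of 14399 genes, 9651 were called (67.0%), 4797 of them higher (33.3%) and 4854 lower (33.7%) in GS_diff2. By at least 2-fold, 3093 differed (21.5%), 1631 upward (11.3%) and 1462 downward (10.2%). The 8-fold mark was passed by 241 genes upward and 220 downward, and the 16-fold mark by 107 and 95. In 10118 genes (70.3%) the 3 libraries of one group all lay above the 3 of the other. The median log2 fold change of all tested genes was -0.0002. With this much movement, a list in which about 33.3% of the members rose and about 33.7% fell is close to the table as a whole.

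**Figure D1:**
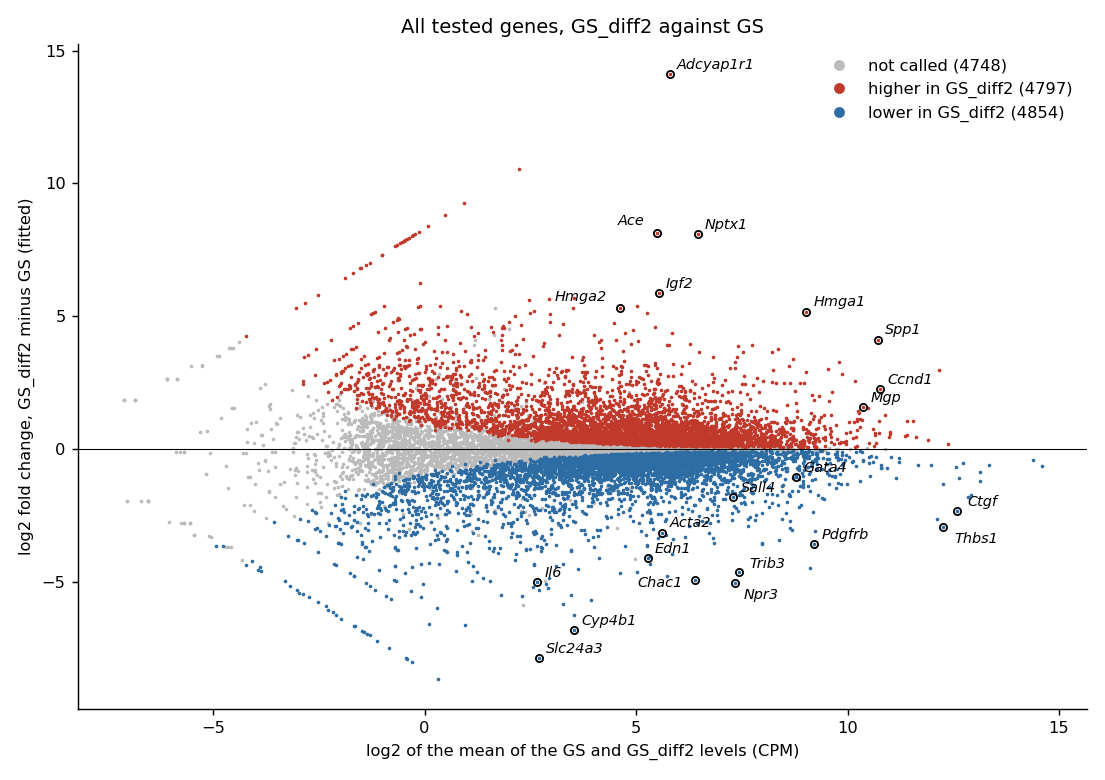
Each point is a tested gene: the horizontal axis is the log2 of its mean level over GS and GS_diff2 (CPM), the vertical axis its fitted log2 fold change, GS_diff2 minus GS. Called genes (4797 higher in red, 4854 lower in blue) lie on both sides at all levels, the circled genes are named, diagonal rows on the left are genes with 0 counts in one group, and 31 genes with 0 counts in both groups are not drawn.

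The viral factors were lower after the medium change. Sall4 (ENSRNOG00000050035, chromosome 3, 165520392 to 165537940 in the deposited table, which names no build) was at 246, 255 and 238 CPM in the GS libraries and 68.9, 67.5 and 72.4 CPM in the GS_diff2 libraries. The groups did not overlap, and the fall was 3.54-fold (log2 -1.82 ± 0.041, adjusted p = 1.41e-24). Gata4 (ENSRNOG00000010708, chromosome 15, 46386712 to 46432965) was at 603, 589 and 594 CPM in GS and 281, 286 and 289 CPM in GS_diff2, a fall of 2.09-fold (log2 -1.06 ± 0.028, adjusted p = 5.71e-24) with no overlap. In GS_diff1, Sall4 stood at 225 ± 4.67 CPM and Gata4 at 495 ± 6.97 CPM. RCF libraries held 0 Sall4 counts and 206 ± 3.43 CPM of Gata4. Reads of the viral and the rat copies cannot be separated in these counts.

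The largest rises went from near absence to a clear signal. Adcyap1r1 (ENSRNOG00000012098, chromosome 4, 85662892 to 85711696), the receptor of the neuropeptide PACAP, had 0 counts in every GS library and 115, 108 and 111 CPM in GS_diff2. Set against a floor of 3 counts in each library, it was at least 663-fold higher (adjusted p = 9.96e-13), and it also had 0 counts in GS_diff1. Ace (ENSRNOG00000007467, chromosome 10, 94170789 to 94206535), angiotensin-converting enzyme, was at 0.275, 0.347 and 0.322 CPM in GS and 91.3, 94.6 and 85.1 in GS_diff2, 284-fold (log2 8.15 ± 0.17, adjusted p = 7.91e-27) higher. Nptx1, a secreted neuronal pentraxin, was at 0.413, 0.984 and 0.579 CPM and then 181, 174 and 171 CPM, 271-fold (log2 8.08 ± 0.13, adjusted p = 2.84e-27) higher. In these 3 genes the lowest GS_diff2 library lay far above the highest GS library, and GS_diff1 levels were also low, at 0.255 ± 0.116 CPM for Ace and 0.0897 ± 0.0871 CPM for Nptx1.

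Igf2, the fetal insulin-like growth factor, rose 58.4-fold, from 1.47, 1.79 and 1.42 CPM to 92.1, 89.4 and 92.4 CPM (log2 5.87 ± 0.12, adjusted p = 3.94e-27), and GS_diff1 stood between at 14.8 ± 0.17 CPM. Both Hmga genes rose; they encode small proteins that bend DNA and are abundant in embryonic and dividing cells. Hmga1 was at 28.5, 26.8 and 29.4 CPM in GS and 1056, 993 and 991 CPM in GS_diff2 (35.9-fold, log2 5.16 ± 0.05, adjusted p = 1.19e-31). Hmga2, the target of let-7 that Lin28 proteins protect, was at 0.918, 1.62 and 1.09 CPM and 47.2, 49.4 and 46.8 CPM (39.8-fold, log2 5.31 ± 0.18, adjusted p = 6.84e-20). In GS_diff1, Hmga1 stood at 11.1 ± 1.28 CPM and Hmga2 at 2.58 ± 0.395 CPM.

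The other genes among the 12 largest rises, for which no overlap between groups was a condition of choice, had low levels in GS. They were Gchfr, the feedback regulator of GTP cyclohydrolase (0.454 ± 0.298 to 22.7 ± 1.71 CPM), Evi2a, a membrane protein gene inside an intron of Nf1 in other mammals (0.296 ± 0.0239 to 15 ± 0.848 CPM), and Gja4, the arterial gap junction protein connexin-37 (0.216 ± 0.0811 to 10.9 ± 0.847 CPM). Tgfbi, a matrix adhesion protein induced by TGF-beta, went from 1.45 ± 0.584 to 63.4 ± 4.68 CPM. Lgi2 went from 0.567 ± 0.235 to 22.1 ± 2.34 CPM, and Plet1, a surface protein of placental and epithelial progenitors, from 0.313 ± 0.0805 to 11.7 ± 0.559 CPM. Whether reads of Evi2a and Nf1 were told apart by strand is not given in the sources used here. The smallest fold of these 12 was 35.9-fold, for Hmga1.

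The largest falls came from many gene families, and 11 of the first 12 are described. Slc24a3, a potassium-dependent sodium-calcium exchanger, was at 13.3, 13 and 12.6 CPM in GS and had 0 to 2 counts a library in GS_diff2 (adjusted p = 3.6e-18). Cyp4b1, a cytochrome P450 enzyme, went from 23 ± 0.853 to 0.199 ± 0.191 CPM, Slc7a3, a transporter of cationic amino acids, from 22.9 ± 1.48 to 0.301 ± 0.12 CPM, and Mal2, a membrane protein of polarized epithelia, from 18.9 ± 2.57 to 0.328 ± 0.0308 CPM. Amn, the partner of cubilin, went from 21.7 ± 1.34 to 0.473 ± 0.0542 CPM, and its level in GS_diff1, 40.4 ± 4.13 CPM, was above GS. Npr3, the clearance receptor of natriuretic peptides, was at 298, 332 and 305 CPM in GS and 7.57, 11.2 and 9.56 CPM in GS_diff2, a fall of 32.8-fold (log2 -5.03 ± 0.086, adjusted p = 3.67e-16). Il6, the inflammatory cytokine, was at 12.8, 11.6 and 12.6 CPM in GS and 0.415, 0.394 and 0.313 CPM in GS_diff2 (32.3-fold lower, adjusted p = 1.99e-15). The other 4 described were the calcium pump Atp2a3, the activin subunit Inhbe, the potassium channel Kcnd3 and Enpp2, which makes lysophosphatidic acid; they had means of 11.6 to 14.6 CPM in GS and 0.321 to 0.409 CPM in GS_diff2.

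**Figure D2:**
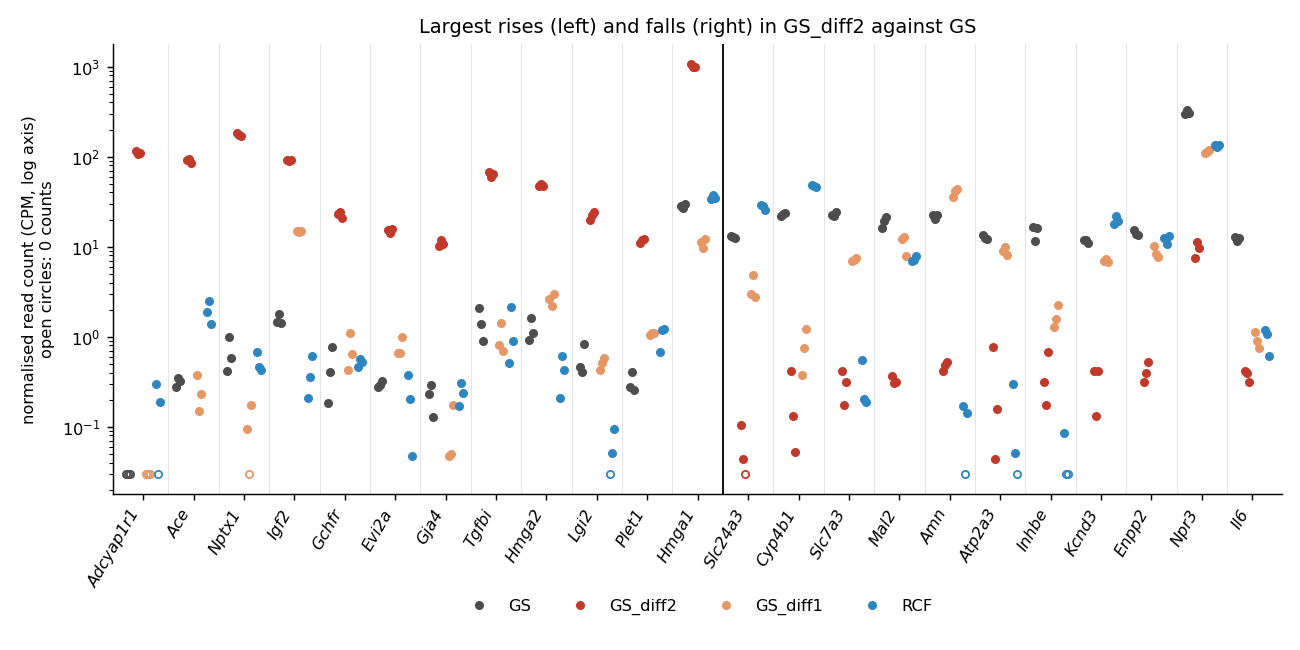
Each point is a library (3 a group, 4 groups), the vertical axis is the normalised read count (CPM, log axis), and open circles at the bottom are libraries with 0 counts. By the rule that chose the genes, the GS_diff2 libraries lie above all GS libraries for the 12 left of the line and below them for the 11 on the right.

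Genes were then read by group. The plot of the gene lists shows 52 lists with the fold changes of their tested members. Calls in a list are to be read against 33.3% higher and 33.7% lower over all genes, and its median against -0.0002. Members that did not pass the filter on low counts were not tested, and a member that is high in one group alone passes through that group, so counts cover tested members only.

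**Figure D3:**
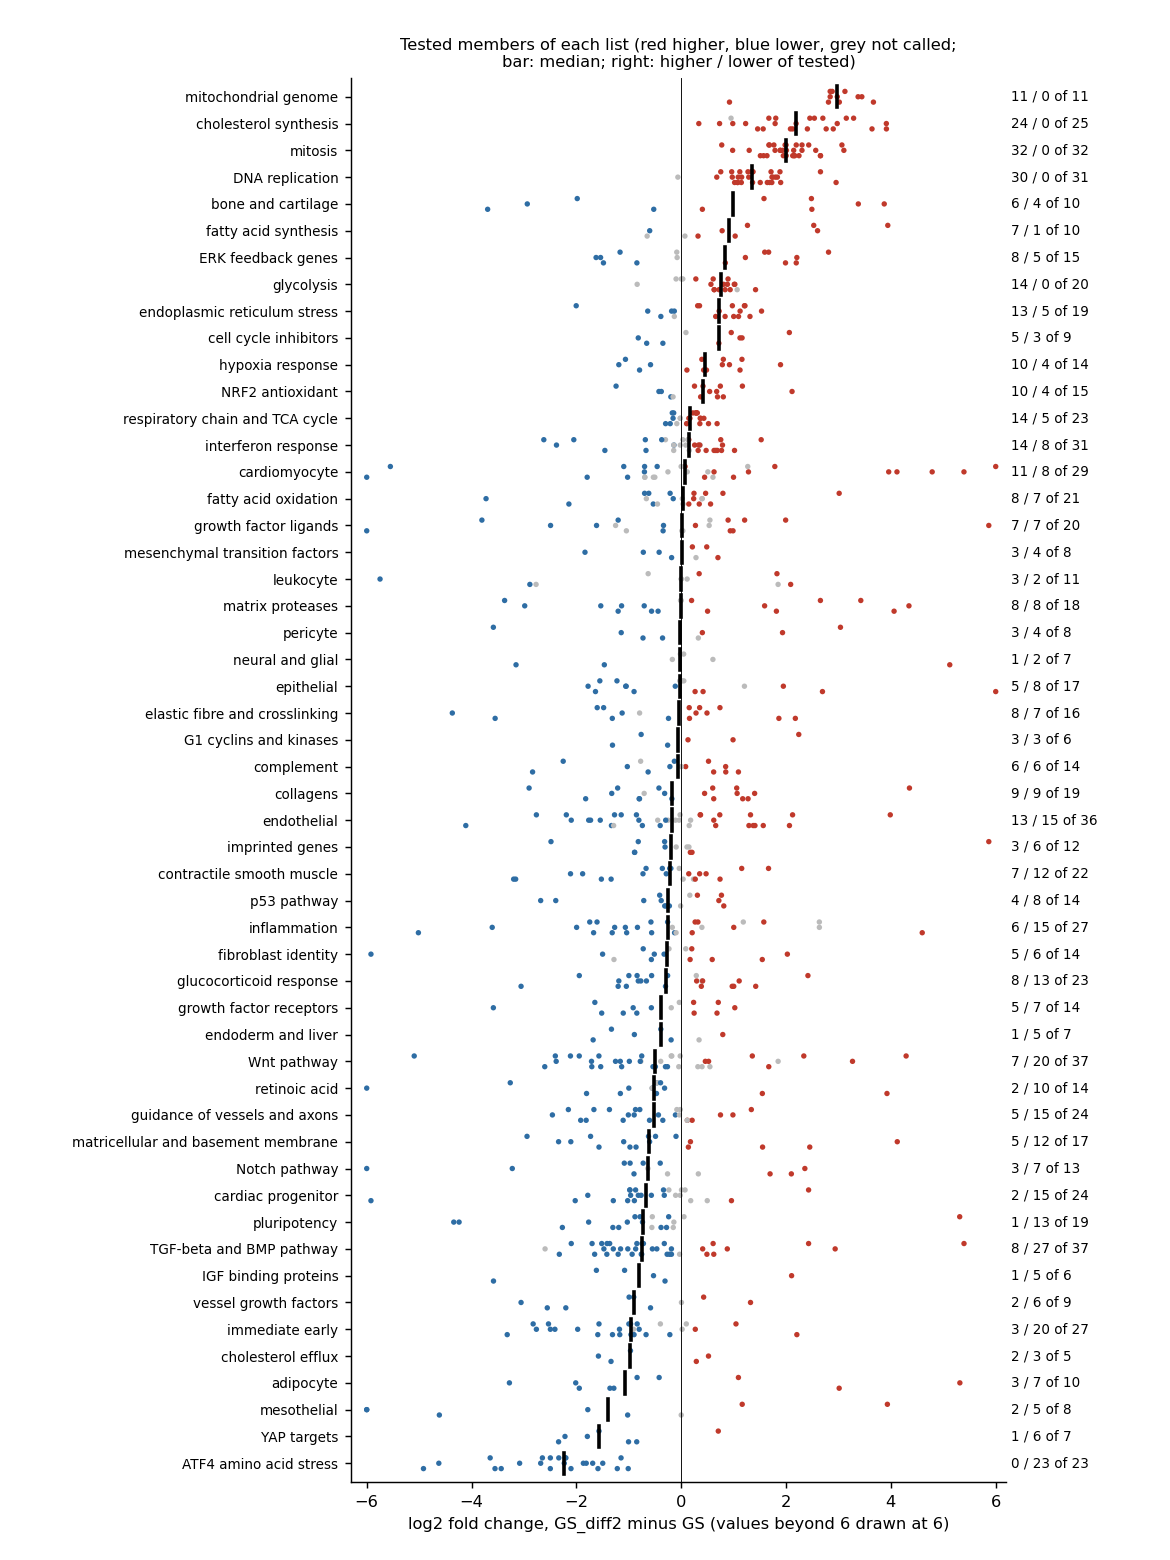
Each row is a gene list, each point a tested member at its log2 fold change, GS_diff2 minus GS (values beyond 6 in either direction drawn at the edge), red if called higher, blue if called lower and grey if not called; black bars are medians. The mitochondrial genome, cholesterol synthesis, mitosis and DNA replication lists lie to the right with no member called lower, and the ATF4 list at the bottom has all 23 tested members called lower.

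Genes of cell division were higher in GS_diff2. Of 32 tested mitosis genes, 32 rose and 0 fell, 30 of them by at least 2-fold, with a median log2 fold change of 2.00. Their summed level was 1015 to 1034 CPM in the GS libraries and 4026 to 4178 CPM in GS_diff2; it was 2953 to 3104 CPM in GS_diff1 and 1059.8 to 1077 CPM in RCF. Kif20a, a kinesin of cytokinesis, was at 30.5, 31.1 and 33.9 CPM in GS and 268, 259 and 270.4 CPM in GS_diff2 (8.37-fold higher, log2 3.07 ± 0.045, adjusted p = 1.41e-30). Cdk1, the kinase that drives entry into mitosis, was at 38.6, 43.4 and 41.8 and 186, 182 and 187 CPM (4.49-fold, adjusted p = 2.59e-24). Mki67, which coats mitotic chromosomes and is the usual marker of dividing cells, was at 64.2, 68.3 and 61.7 and 274, 293 and 296 CPM (4.44-fold, adjusted p = 8.18e-21). The centromeric histone Cenpa (8.59-fold) and the cytokinesis scaffold Anln (6.31-fold) rose as well. Members of the spindle and kinetochore had a median of 2.22, and kinases, cyclins and regulators one of 1.78.

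DNA replication genes moved the same way: of 31 tested, 30 rose and 0 fell, with a median of 1.36, and 26 rose by at least 2-fold. Tk1, the thymidine kinase of S phase, was at 29.7, 31.7 and 32.3 CPM in GS and 198, 193 and 199 CPM in GS_diff2 (6.31-fold, log2 2.66 ± 0.046, adjusted p = 8.28e-29). The helicase subunit Mcm5 rose 3.73-fold and the sliding clamp Pcna 2.22-fold. All 12 helicase and origin factors, all 10 polymerase, clamp and ligase genes and all 5 nucleotide synthesis genes that were tested rose. Summed levels of this list were 879.8 to 889.6 CPM in GS and 2433 to 2451 CPM in GS_diff2. Against GS_diff1, which shares the GS_diff2 libraries with this comparison, 20 mitosis genes were higher and 4 lower (median 0.45, background 32.1% higher and 31.5% lower), and 16 replication genes were higher and 7 lower (median 0.20).

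The promoters of these genes are shown with the motifs that textbooks give for cell cycle promoters. Nearly all tested members of both lists were called higher, so the shares describe the lists, whatever the fold changes. Promoter sequences are RefSeq's, assembly GRCr8, 250 bases before to 50 after the gene's start, and 27457 promoters (1 a symbol) were searched on both strands. Mitotic genes are known for the CHR element, searched as TTTGAA and TTTAAA: it was present in 25 of 27 mitosis genes that had a promoter in the table (92.59%), against 27.97% of all promoters. Replication genes are known for E2F sites, searched as TTTCCCGC, TTTGGCGC and TTCCCGCC, which overlap one another in part: they were present in 14 of 23 replication genes (60.87%), against 3.023% of all promoters. The exchange gave low shares, with CHR letters in 2 of 23 replication promoters and E2F letters in 1 of 27 mitosis promoters. CCAAT, the letters of NF-Y sites, occurred in 18 of 27 mitosis (66.67%) and 16 of 23 replication promoters (69.57%), against 37.66% of all. These shares describe letters in the sequence and no binding was measured. The 4 mitosis promoters with the largest rise that hold a CHR element follow, 5′ to 3′ on the gene's strand, with the CHR letters in capitals.
Cenpa (GRCr8 chr6:31431618-31431707, minus strand): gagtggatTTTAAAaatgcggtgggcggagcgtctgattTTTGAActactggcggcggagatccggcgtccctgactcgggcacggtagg
Kif20a (GRCr8 chr18:26504311-26504400, plus strand): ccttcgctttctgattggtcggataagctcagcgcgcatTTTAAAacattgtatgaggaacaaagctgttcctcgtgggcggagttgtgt
Anln (GRCr8 chr8:29197514-29197603, minus strand): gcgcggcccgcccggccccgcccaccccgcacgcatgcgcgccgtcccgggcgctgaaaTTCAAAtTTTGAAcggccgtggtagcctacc
Birc5 (GRCr8 chr10:103572056-103572145, plus strand): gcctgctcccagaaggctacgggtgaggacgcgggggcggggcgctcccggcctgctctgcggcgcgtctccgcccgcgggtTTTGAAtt
The 4 replication promoters with the largest rise that hold E2F letters follow, with these in capitals.
Mcm5 (GRCr8 chr19:13488723-13488812, plus strand): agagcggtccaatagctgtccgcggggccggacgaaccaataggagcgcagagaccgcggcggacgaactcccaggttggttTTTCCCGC
Pole (GRCr8 chr12:52053657-52053746, minus strand): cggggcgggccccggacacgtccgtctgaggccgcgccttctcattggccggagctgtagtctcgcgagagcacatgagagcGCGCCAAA
Mcm3 (GRCr8 chr9:30733745-30733834, minus strand): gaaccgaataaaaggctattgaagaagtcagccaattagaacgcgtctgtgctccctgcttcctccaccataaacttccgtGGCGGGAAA
Chaf1a (GRCr8 chr9:961135-961224, plus strand): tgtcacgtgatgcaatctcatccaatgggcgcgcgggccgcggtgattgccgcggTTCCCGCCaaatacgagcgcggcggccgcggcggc
Birc5 (survivin), Chaf1a (a histone chaperone), Pole (a polymerase) and Mcm3 (a helicase subunit) are named because they hold the motif among the largest rises.

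Among genes that set entry into the cycle, Ccnd1 (cyclin D1), which growth factors induce, was at 616, 588 and 613 CPM in GS and 2855, 2862 and 2883 CPM in GS_diff2, 4.73-fold (log2 2.24 ± 0.026, adjusted p = 4.46e-33) higher, while GS_diff1 was at 377 ± 0.245 CPM. Its kinase partner Cdk6 rose 1.98-fold, and Cdk4 (1.2-fold), Ccnd2 (1.7-fold) and Myc (2.48-fold) fell. Inhibitors of the cycle moved in both directions, 5 up and 3 down of 9 tested. Cdkn2a, the INK4A and ARF locus, was at 8.03, 15.6 and 9.4 CPM in GS and 31.3, 58.6 and 47.2 CPM in GS_diff2; the groups did not overlap, though the libraries of each group spread widely (4.18-fold, adjusted p = 0.000261). Its neighbour Cdkn2b rose 2.24-fold and Cdkn2c 2.18-fold, Cdkn1a (p21) rose 1.65-fold, and Cdkn1b and Cdkn1c fell 1.58-fold and 1.76-fold. In the p53 list, 4 rose and 8 fell of 14, and the largest falls were those of Sesn2 (6.41-fold) and Gadd45a (5.25-fold), stress genes that are also known to respond to ATF4.

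Cholesterol synthesis genes rose together. Of 25 tested genes, 24 rose and 0 fell, 21 by at least 2-fold, with a median of 2.19, and all 20 pathway enzymes were among them. Summed levels were 771 to 780.4 CPM in GS and 4299 to 4353 CPM in GS_diff2, with 2360.1 to 2403 CPM in GS_diff1 and 2196 to 2197 CPM in RCF. Idi1, the isopentenyl diphosphate isomerase, was at 7.07, 7.23 and 6.12 CPM in GS and 103, 103 and 103 CPM in GS_diff2 (15.1-fold, log2 3.91 ± 0.069, adjusted p = 1.24e-28). Hmgcs1, an early enzyme of the pathway, was at 49.4, 46.2 and 49.3 and 321, 330.4 and 335 CPM (6.8-fold, log2 2.77 ± 0.04, adjusted p = 1.41e-30). In both genes every GS_diff2 library lay above every GS library. Against GS_diff1, 22 of the 25 were higher and 1 lower (median 0.62).

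SREBP2 is the known regulator of this pathway and acts with NF-Y. CCAAT was found in 14 of 17 promoters of the genes that rose (82.35%, against 37.66% of all promoters), and the letters TCACCCCAC, one form of the sterol element, in 0 of 17, against 0.4844% of all. The 4 with the largest rise that hold CCAAT, with CCAAT or its complement ATTGG in capitals, are these.
Idi1 (GRCr8 chr17:66547525-66547614, minus strand): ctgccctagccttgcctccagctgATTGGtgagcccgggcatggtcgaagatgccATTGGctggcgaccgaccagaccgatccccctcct
Msmo1 (GRCr8 chr16:29747004-29747094, plus strand): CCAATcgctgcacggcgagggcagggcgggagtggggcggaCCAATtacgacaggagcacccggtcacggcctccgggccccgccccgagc
Insig1 (GRCr8 chr4:8057913-8058002, minus strand): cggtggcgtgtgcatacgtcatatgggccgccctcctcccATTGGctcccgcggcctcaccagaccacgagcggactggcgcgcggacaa
Hsd17b7 (GRCr8 chr13:84722755-84722844, minus strand): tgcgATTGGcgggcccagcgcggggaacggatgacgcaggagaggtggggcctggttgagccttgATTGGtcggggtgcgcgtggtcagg
Idi1, Msmo1 and Hsd17b7 hold more than 1 such motif in the promoter.

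Genes that send cholesterol out of the cell moved in both directions: of 5 tested LXR targets, 2 rose and 3 fell, with Abca1, the exporter to high-density lipoprotein, 2.53-fold lower. Fatty acid synthesis and desaturation genes mostly rose, 7 against 1 that fell of 10 tested (median 0.91). The desaturases Scd1 (3.44, 4.05 and 3.22 CPM in GS, 56.3, 55.8 and 52.8 CPM in GS_diff2, 15.4-fold, adjusted p = 8.71e-24), Fads1 (5.77-fold) and Fads2 (6.07-fold) rose most, and the malic enzyme Me1 fell 1.52-fold. Fatty acid oxidation genes were 8 up and 7 down of 21, near the background shares.

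ATF4, the transcription factor of the amino acid response, drives enzymes and transporters that supply amino acids. All 23 tested genes of its list fell, each by at least 2-fold, with a median of -2.23; the background is 10.2% of genes that fell by at least 2-fold. Summed levels dropped from 6464 to 6586 CPM in GS to 1414 to 1425 CPM in GS_diff2, under both GS_diff1 (3649 to 3682 CPM) and RCF (3101 to 3119.9 CPM). Chac1, which degrades glutathione, was at 161, 163 and 164 CPM in GS and 6.12, 5.08 and 4.96 CPM in GS_diff2 (30.2-fold lower, log2 -4.92 ± 0.072, adjusted p = 1.47e-30). Trib3, a pseudokinase that feeds back on ATF4, was at 328, 337 and 323 and 14.4, 13.7 and 12 CPM (24.7-fold, adjusted p = 6.62e-33). The cystine transporter Slc7a11 was at 46.3, 50.04 and 52.5 and 3.42, 2.89 and 5.69 CPM (12.5-fold), asparagine synthetase Asns at 343, 336 and 363 and 54.5, 53.7 and 58 CPM (6.27-fold), and Ddit3, the stress factor CHOP, at 139.8, 133 and 136 and 29.97, 33.5 and 31.5 CPM (4.3-fold). Groups were apart in all 5. All 7 regulators, 9 enzymes and 7 transporters or secreted factors tested are counted in the 23. TGATGCAA, the composite letters of ATF4 sites, was in 1 of 21 promoters of these genes, against 0.743% of all.

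Chaperones of the endoplasmic reticulum moved the other way. Of 13 chaperone and folding genes tested, 12 rose and 0 fell, with a median of 1.00. Hsp90b1, the chaperone GRP94, was at 735, 725 and 758 CPM in GS and 2118, 2139.9 and 2156 CPM in GS_diff2 (2.89-fold, adjusted p = 4.57e-29), the disulfide isomerase Pdia6 rose 2.32-fold, Sdf2l1 2.48-fold and Hspa5 (BiP) 1.65-fold. Sensors and degradation factors went down in 5 of 6, led by Herpud1 (4.01-fold). In the NRF2 antioxidant list 10 rose and 4 fell of 15, with the pentose phosphate enzyme Tkt up 2.25-fold and heme oxygenase Hmox1 down 2.37-fold.

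**Figure D4:**
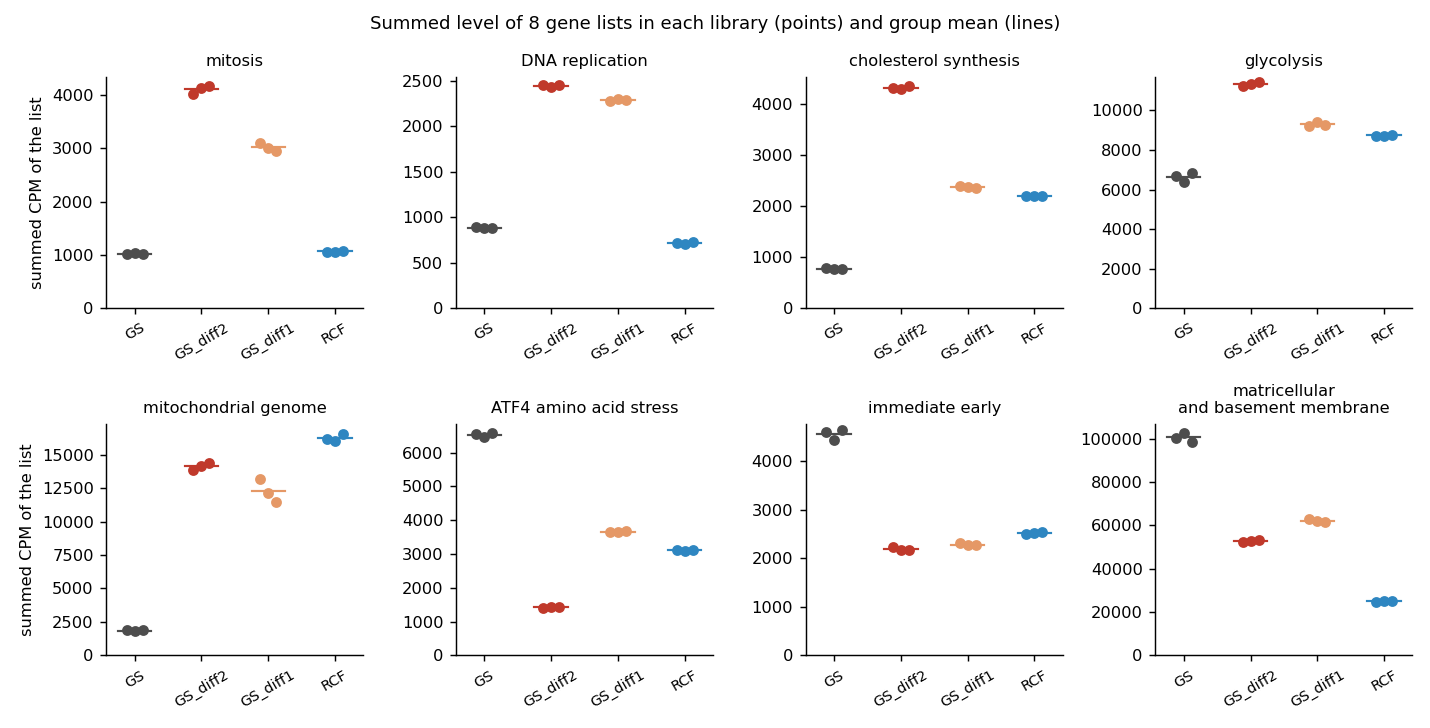
Each panel sums the normalised read counts (CPM, linear axis from 0) of all members of a list in each library (points, 3 a group) with the group mean as a line. Mitosis, DNA replication, cholesterol synthesis, glycolysis and mitochondrial genome sums are higher in GS_diff2 than in GS in all libraries, and the ATF4, immediate early and matricellular sums are lower.

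Glycolysis genes rose in 14 of 20 and fell in 0, with a median of 0.76. Ldha, which turns pyruvate into lactate, was at 668, 652 and 671 CPM in GS and 1743, 1787 and 1790.1 CPM in GS_diff2 (2.67-fold, adjusted p = 2.56e-28), Gapdh rose 2.03-fold and Pdk1, which keeps pyruvate out of mitochondria, 2.02-fold. Gapdh has many near-identical pseudogenes, and how their reads were counted is not given in the sources used here. In the hypoxia list 10 rose and 4 fell of 14: carbonic anhydrase Car9 rose 3.72-fold, Bnip3 2.23-fold and Egln3 2.18-fold, while the factors themselves, Hif1a and Epas1, fell 1.73-fold and 2.09-fold.

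All 11 tested protein genes of the mitochondrial genome rose, 10 by at least 2-fold, with a median of 2.98. The 2 mitochondrial ribosomal RNA genes tested rose less, with a median of 0.62. They summed to 189.6 to 197 CPM in GS and 293.7 to 327.3 CPM in GS_diff2. Mt-co1, a subunit of cytochrome oxidase, was at 1045, 1035 and 1006 CPM in GS and 7981, 8074 and 8253 CPM in GS_diff2 (7.88-fold, adjusted p = 3.65e-19), with 7028 ± 415 CPM in GS_diff1 and 11296 ± 179 CPM in RCF. Nuclear genes of the respiratory chain and TCA cycle changed by less than 2-fold: 14 rose and 5 fell of 23, with a median of 0.17. Small nucleolar RNA genes were also lowest in GS. Of 95 small nucleolar RNA genes tested, 69 were higher and 1 lower in GS_diff2 than in GS (median 1.69), and their summed level was 41.6 to 45.5 CPM in GS, 143 to 157 CPM in GS_diff2, 153 to 164 CPM in GS_diff1 and 109.7 to 112.5 CPM in RCF. MicroRNA genes shared that order only in part: of 68 tested, 30 were higher and 15 lower in GS_diff2 than in GS (median 0.66). Their sums overlapped, at 389.1 to 433.5 CPM in GS and 375.4 to 424.3 CPM in GS_diff2. The sums of GS_diff1 (845.9 to 1038 CPM) and RCF (547.6 to 630.7 CPM) lay above both. GS was thus the low group for mitochondrial and small nucleolar RNA genes, and the part of library making or RNA recovery in the mitochondrial result was not tested.

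Feedback genes of ERK, the kinase cascade under growth factor receptors, rose in 8 and fell in 5 of 15 (median 0.84). Dusp6, the phosphatase that turns ERK off, was at 52.8, 54.7 and 58 CPM in GS and 258, 245 and 254 CPM in GS_diff2, 4.58-fold (log2 2.19 ± 0.048, adjusted p = 3.83e-26) higher, and GS_diff1 was at 10.8 ± 0.441 CPM. Etv4, an ETS factor that ERK induces, was at 6.24, 4.74 and 7.79 and 44.3, 43.1 and 43.9 CPM (7.01-fold, adjusted p = 5.94e-18), and Fosl1, an AP-1 subunit, at 29.2, 26.7 and 26 and 130.3, 129 and 120.0 CPM (4.61-fold, adjusted p = 1.37e-22). In all 3 the groups were apart and GS_diff1 was below GS (2.48 ± 0.316 CPM for Etv4, 15.8 ± 0.827 CPM for Fosl1). Spry1, Ier3 and Dusp4 of the same list fell, 3.08-fold, 2.8-fold and 2.9-fold.

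Growth factor ligands moved in both directions, 7 up and 7 down of 20. Besides Igf2, the scatter factor Hgf was at 11.2, 12.2 and 10.2 CPM in GS and 45.5, 43.1 and 45.3 CPM in GS_diff2 (3.98-fold, adjusted p = 9.16e-18), and Pdgfc rose 2.31-fold. Fgf1, Btc and Nrg1 fell, 14-fold, 5.63-fold and 3.06-fold. Fgf7 was at 24.7 ± 1.02 CPM in GS and 25.2 ± 0.493 CPM in GS_diff2 (adjusted p = 0.905), while GS_diff1 held 0.639 ± 0.298 CPM. Binding proteins of the insulin-like growth factors fell in 5 of 6, led by Igfbp2, at 488, 444 and 472 CPM in GS and 40.3, 38.5 and 38.5 CPM in GS_diff2 (12-fold, adjusted p = 4.2e-29). Among receptors, 5 rose and 7 fell of 14. Pdgfrb, the PDGF receptor of fibroblasts and mural cells, was at 1101, 1085 and 1105 CPM in GS and 89.2, 95.1 and 89.9 CPM in GS_diff2, 12-fold (log2 -3.58 ± 0.031, adjusted p = 4.2e-36) lower, and RCF was at 905 ± 11.3 CPM. Egfr fell 3.13-fold and Kit 2.86-fold, and Met, the receptor of Hgf, and Axl rose 2.03-fold and 1.63-fold. Of 9 vessel growth factors tested 6 fell, among them Vegfa (1.5-fold), Figf (Vegf-D, 5.88-fold) and Angpt1 (4.6-fold), and Apln (2.5-fold) and Adm (1.35-fold) rose.

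The glucocorticoid response list was read because EGM2 media usually contain hydrocortisone. Of 23 tested, 8 rose and 13 fell (median -0.30), which is no excess of rises over the background of 33.3%. The share that fell was above the background of 33.7%. Sgk1, a kinase that steroids induce, was at 42, 41.2 and 41.5 CPM in GS and 226, 220.0 and 220.5 CPM in GS_diff2 (5.34-fold, adjusted p = 8.1e-27), Fkbp5, a chaperone of the receptor, at 45.2, 50.3 and 44.1 and 129, 121 and 125 CPM (2.68-fold, adjusted p = 4.55e-17), and the clock gene Per1 rose 2.15-fold. Tsc22d3 (GILZ), a classic target, went the other way, 79.98, 80.8 and 76.7 CPM in GS and 36.5, 38.6 and 39.95 CPM in GS_diff2 (2.07-fold lower), as did Cebpb (3.85-fold), Angptl4 (8.31-fold) and the receptor gene Nr3c1 (1.71-fold). Against GS_diff1, the same list had 17 higher and 5 lower (median 0.90); GS_diff2 libraries enter both comparisons. The symbols Tsc22d3 and Nr3c1 each stand for more than 1 gene identifier in the table, and the longest gene model was used.

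The labels speak of endothelial and cardiomyocyte differentiation, and markers of both types were checked. In these bulk samples fewer cells of a type and less RNA per cell cannot be told apart. Of 36 endothelial genes tested, 13 rose and 15 fell (median -0.18), close to the background shares of calls. By at least 2-fold, 8 rose and 10 fell of the 36, more than the 11.3% and 10.2% of all genes. Defining markers stayed at or near 0: Kdr, the main VEGF receptor, had 0 counts in GS and 0 to 1 a library in GS_diff2, Cdh5 had 1 to 8 and 1 to 3, Nos3 had 1 to 7 and 0 to 3, Cldn5 had 0 in both groups, and Pecam1 was not matched in the table. Of 6 secreted proteins and enzymes tested, 5 rose and 1 fell, 4 of the rises by at least 2-fold (median 1.36). Esm1, a proteoglycan of sprouting vessels, was at 36.5, 39.4 and 39.3 CPM in GS and 153, 164 and 164 CPM in GS_diff2 (4.18-fold, adjusted p = 2.87e-20). Vwf, the clotting protein, was at 1.61, 1.27 and 1.22 and 3.53, 3.99 and 3.45 CPM (2.65-fold, adjusted p = 0.000406), and Lyve1, a hyaluronan receptor of lymphatic vessels, at 0.138, 0.174 and 0.322 and 3.42, 2.93 and 3.66 CPM (adjusted p = 1.39e-07). Endothelial transcription factors were 3 up and 7 down of 15: Sox17 was at 719.7, 695 and 715 CPM in GS and 292, 270.2 and 285 CPM in GS_diff2 (2.52-fold lower), Sox7 fell 2.92-fold, Klf2, which flow induces, 6.79-fold, and Erg 4.57-fold to 0.322 ± 0.0992 CPM. Edn1, the vessel constrictor, was at 76.4, 68.4 and 74.9 CPM in GS and 4.15, 4.64 and 3.86 CPM in GS_diff2 (17.3-fold lower, adjusted p = 4.06e-26), and Flt1 and Nrp1 fell 1.32-fold and 2.42-fold. Tek was at 12.2 ± 0.883 and 13.6 ± 1.09 CPM (adjusted p = 0.303). The summed level of the list was 3223 to 3334 CPM in GS and 2212 to 2263 CPM in GS_diff2.

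Cardiomyocyte genes went both ways, 11 up and 8 down of 29 (median 0.07). The summed level of the list, which follows its most abundant members, was 1346 to 1387 CPM in GS and 1978 to 2008 CPM in GS_diff2. GS_diff1 summed to 1708 to 1748 CPM. Against GS_diff1, 9 members were higher and 13 lower (median -0.23), and of sarcomere genes 5 were higher and 6 lower. Of 14 sarcomere genes tested, 6 rose and 2 fell, 5 of the rises and 1 of the falls by at least 2-fold. The 2 that fell are not named here. The troponins given here rose at low levels. Tnnt2, cardiac troponin T, was at 1.93, 2.02 and 1.93 CPM in GS and 34.4, 33.6 and 34.3 CPM in GS_diff2 (17.3-fold, log2 4.12 ± 0.13, adjusted p = 4.95e-22), and RCF, the fibroblasts of origin, held 15.1 ± 0.799 CPM. Tnni1, the slow skeletal and fetal cardiac troponin I, was at 0.642, 0.579 and 0.386 and 15.7, 17.6 and 12.4 CPM (27.6-fold, adjusted p = 2.09e-16), and Tnni3, the adult cardiac form, at 0, 0.231 and 0.129 and 2.28, 1.4 and 1.83 CPM (adjusted p = 1.69e-06). Myoz2, a protein of the Z disc, reached 1.81 ± 0.267 CPM. The connexin Gja5 had 0 counts in GS and 1.92, 1.14 and 1.31 CPM in GS_diff2, at least 8.65-fold higher (adjusted p = 1.33e-07). The myosin heavy chains were absent or near it: Myh7 had 0 counts in both groups and Myh6 was at 0.361 ± 0.214 and 0.264 ± 0.187 CPM (adjusted p = 0.577). Myl2 and Tcap had 0 counts in both groups, Nppa had 0 to 1 and 0 to 2 counts a library, Ryr2, the calcium release channel of the sarcoplasmic reticulum, had 1 to 4 and 10 to 22 and was not tested, and Ttn was not matched in the table. Hcn4, the pacemaker channel, fell from 9.73, 9.26 and 9.85 CPM to 0.259, 0 and 0.366 CPM (adjusted p = 3.6e-08), and Nppb, the B-type natriuretic peptide, from 16, 16.9 and 17.1 to 7.62, 6.66 and 9.14 CPM (2.14-fold). Cardiac progenitor genes fell in 15 and rose in 2 of 24 (median -0.67). Tbx5 was at 2.98, 1.04 and 2.38 CPM in GS and 0.519, 0.482 and 0.574 CPM in GS_diff2 (4.06-fold lower), Gata6 fell 1.86-fold, and the signals Bmp2 and Bmp4 went apart, 5.39-fold up and 2.45-fold down.

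**Figure D5:**
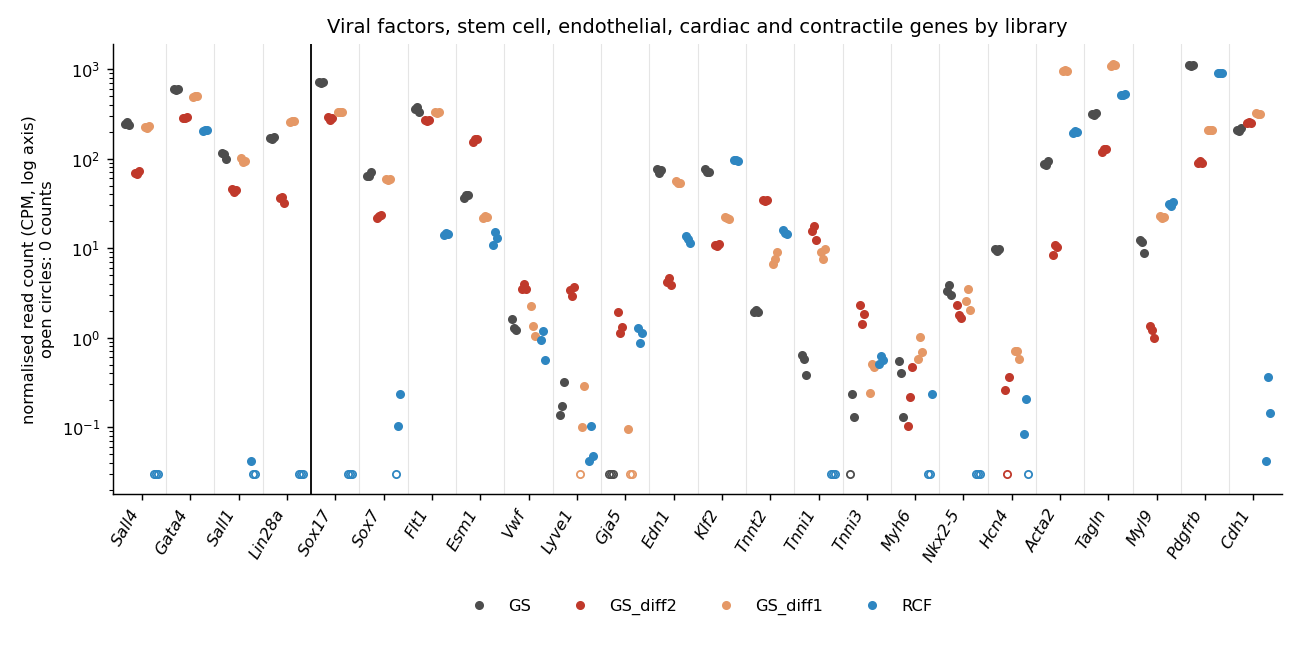
Each point is a library, with the normalised read count (CPM) on a log axis and open circles for 0 counts; genes run from the viral and stem cell factors on the left to endothelial, cardiac, contractile and mural genes and Cdh1 on the right. GS_diff2 lies below GS for Sall4, Lin28a, Sox17, Edn1, Acta2 and Pdgfrb and above it for Esm1, Lyve1, Gja5, Tnnt2 and Tnni1, while the Myh6 libraries of the groups overlap.

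Contractile smooth muscle genes rose in 7 and fell in 12 of 22 (median -0.21). By at least 2-fold, 2 rose and 6 fell, and the 2 rises are not named here. The list summed to 4355 to 4440 CPM in GS, 4078 to 4108 CPM in GS_diff2 and 9397 to 9493 CPM in GS_diff1. Acta2, smooth muscle actin, was at 87.8, 83.9 and 93.5 CPM in GS and 8.4, 10.9 and 10.2 CPM in GS_diff2, 8.93-fold (log2 -3.16 ± 0.059, adjusted p = 6.98e-24) lower, whereas GS_diff1 held 961 ± 13.7 CPM. Tagln (SM22) was at 315, 304 and 321 and 118, 127 and 127 CPM (2.53-fold lower), and the myosin light chain Myl9 at 12.4, 11.6 and 8.76 and 1.35, 1.23 and 0.992 CPM (9.17-fold lower). Cald1 rose 1.67-fold. Pericyte genes were 3 up and 4 down of 8 (median -0.01), near the background shares. Their sum was 1387 to 1409 CPM in GS and 489 to 533 CPM in GS_diff2. Pdgfrb, whose levels are given above, made up most of the GS sum and fell by more CPM than the sum did. The marker Rgs5 had 0 counts in both groups. Of this list, the channel pair Kcnj8 and Abcc9, which forms the vascular ATP-sensitive potassium channel, rose 8.21-fold and 3.82-fold. Kcnj8 was at 2.16, 1.56 and 1.87 CPM in GS and 13.7, 18.2 and 14.4 CPM in GS_diff2, and Abcc9 at 17.6, 17.6 and 22.7 and 68.9, 77 and 74.2 CPM. GS_diff1 was below GS for both, at 0.158 ± 0.095 and 0.604 ± 0.287 CPM. Pdgfrb and Mcam, of the same list, fell.

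Stem cell genes mostly fell: of 19 tested in the pluripotency list, 1 rose and 13 fell (median -0.74). Lin28a, the RNA-binding protein that blocks let-7 maturation, was at 169, 164 and 176 CPM in GS and 36.4, 37 and 32.2 CPM in GS_diff2, 4.82-fold (log2 -2.27 ± 0.049, adjusted p = 4.72e-25) lower, and at 260.3 ± 5.49 CPM in GS_diff1. Sall1, a relative of Sall4, fell 2.47-fold to 44 ± 1.39 CPM, and Tdh, the threonine dehydrogenase of embryonic stem cells, from 3.67, 4.92 and 2.96 to 0.207, 0.0438 and 0.366 CPM. The member that rose was Hmga2. Core factors were at or near 0: Nanog had 0 counts in both groups, Sox2 1 to 3 counts a library in GS and 0 in GS_diff2, and Pou5f1 0.894 ± 0.343 and 0.62 ± 0.235 CPM (adjusted p = 0.332).

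Epithelial genes were 5 up and 8 down of 17. Cdh1 (E-cadherin) was at 211 ± 8.57 CPM in GS and 253 ± 4.18 CPM in GS_diff2 (1.2-fold higher), Krt8 rose 1.33-fold, and Cldn6, Krt19 and the splicing factor Esrp1 fell 2.07-fold, 3.43-fold and 2.34-fold. Mesothelial genes were 2 up and 5 down of 8: Msln (mesothelin) was at 7.16, 6.07 and 6.12 CPM in GS and 98.6, 98.9 and 100.2 CPM in GS_diff2 (15.3-fold, adjusted p = 1.03e-24), and Wt1 and Lrrn4 fell 3.44-fold and 24.5-fold. Endoderm genes were 1 up and 5 down of 7, and their sum was 1065 to 1100 CPM in GS and 511 to 527 CPM in GS_diff2. Sox17 and Gata6, given above, are among the falls, and Hnf4a was at 1.85 ± 0.699 and 3.16 ± 0.526 CPM (1.73-fold higher). Fibroblast genes were 5 up and 6 down of 14: S100a4 rose 4.07-fold, gelsolin (Gsn) 2.92-fold and Pdpn 1.51-fold, and Pdgfra (1.48-fold), Postn (1.65-fold) and Scx (2.83-fold) fell. Markers of other cells that a heart culture could hold were also read. Ptprc, the marker of all leukocytes, had 0 counts in 5 of the 6 libraries, the C1q genes, Cd3e and Cd163 had 0 in all 6, and the leukocyte list summed to 24.5 to 28 CPM in GS and 32.7 to 35.3 CPM in GS_diff2 (3 up, 2 down of 11, with Cd68, a lysosomal protein of macrophages, 4.25-fold up). Sox10 and Rbfox3 of the neural and glial list had 0 counts in both groups, but that list summed to 324 to 353 CPM in GS and 138 to 143 CPM in GS_diff2 (1 up and 2 down of 7), mostly from the adhesion molecule Ncam1, at 311 ± 12.9 and 113 ± 2.56 CPM (2.76-fold lower). Adipocyte genes were 3 up and 7 down of 10 and summed to 682 to 739.6 CPM in GS and 247 to 264 CPM in GS_diff2. The largest part in GS was Cebpb, also in the glucocorticoid list, at 418 ± 22.1 and 109 ± 3.76 CPM. The adipocyte markers Adipoq, Plin1 and Cidec were not tested. They had 1 to 6, 0 to 9 and 0 to 6 counts a library in GS and 0 to 1, 0 to 2 and 0 to 1 in GS_diff2. The part of such cells in the results was not tested.

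Matrix genes moved in both directions. Collagens were 9 up and 9 down of 19. Col3a1 was at 11361, 11398 and 11429.8 CPM in GS and 3265, 3215 and 3182 CPM in GS_diff2 (3.54-fold lower, adjusted p = 3.63e-32), Col1a1 fell 1.34-fold, and the basement membrane chain Col4a2 2.51-fold, while Col6a3 and Col15a1 rose 2.42-fold and 2.64-fold. Matricellular proteins, which signal to cells from the matrix, fell in 7 of 8. Ctgf (CCN2) was at 10230.0, 10057 and 10480.5 CPM in GS and 2031, 1989 and 2058 CPM in GS_diff2 (5.06-fold lower, adjusted p = 3.23e-35), Thbs1 at 8705, 8929 and 8379.9 and 1103, 1107 and 1175 CPM (7.68-fold, adjusted p = 2.6e-28), and Tnc fell 4.31-fold, though GS_diff1 held 2376 ± 8.03 CPM. The one that rose was Spp1 (osteopontin), at 179, 188 and 179 CPM in GS and 3098, 3170.4 and 3229.8 CPM in GS_diff2, 17.4-fold (log2 4.12 ± 0.031, adjusted p = 3.15e-37) higher, with 223 ± 3.36 CPM in GS_diff1. Of 7 YAP targets, 6 fell and 1 rose (median -1.57): Ctgf, Ankrd1 (4.65-fold) and Ajuba (3.46-fold) were among the falls, and Axl was the rise. Elastin (Eln) was at 221, 195 and 225 CPM in GS and 19.3, 17.3 and 18.1 CPM in GS_diff2 (11.7-fold lower), and Fbn2 fell to 0.563 ± 0.486 CPM, while Loxl3, a crosslinking enzyme, and Ltbp1, which stores TGF-beta, rose 4.52-fold and 3.64-fold.

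Matrix proteases rose in 7 and fell in 6 of 14 tested. The stromelysin Mmp3 was at 3.72, 2.95 and 4.57 CPM in GS and 58, 62.8 and 66.2 CPM in GS_diff2 (16.7-fold, adjusted p = 2.02e-11), urokinase (Plau) rose 6.3-fold, and the aggrecanase Adamts5 fell 10.3-fold. Their inhibitor Timp3 was at 693, 707 and 712 CPM in GS and 89.7, 89.1 and 87.8 CPM in GS_diff2 (7.92-fold lower, adjusted p = 2.6e-33). Bone and cartilage genes were 6 up and 4 down of 10. Acan (aggrecan), the proteoglycan of cartilage, was at 18.8, 23.5 and 23.2 CPM in GS and 320.3, 319.6 and 313 CPM in GS_diff2 (14.7-fold, adjusted p = 7.2e-26), Mgp, which blocks calcification, at 671, 639 and 679 and 1944, 1982 and 2018 CPM (2.99-fold), and the pyrophosphate exporter Ankh rose 5.63-fold. Alpl and Comp fell 7.66-fold and 3.96-fold. Mgp in GS_diff1 was at 44.2 ± 3.2 CPM, below GS.

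Signalling genes of several pathways fell more often than the background of 33.7%. In the TGF-beta and BMP list 8 rose and 27 fell of 37 (median -0.75): of ligands 8 of 11 fell, of receptors 8 of 10 and of inhibitors 8 of 9. Tgfb2 was at 129, 135 and 136 CPM in GS and 24.6, 26.1 and 28.9 CPM in GS_diff2 (5.01-fold lower), Inhba fell 3.25-fold and the receptor Acvrl1 4.28-fold, while Gdf6 and Bmp2 rose 7.66-fold and 5.39-fold, and Id1, a BMP target, 1.4-fold. In the Wnt list 7 rose and 20 fell of 37, with 11 of 13 receptors lower. Lgr5, the R-spondin receptor of stem cells, went from 1.06, 2.89 and 1.74 to 0.104, 0.0438 and 0 CPM, and Sfrp2, a secreted modulator, from 461, 444 and 466 to 141, 134 and 144 CPM (3.28-fold lower), while Sfrp1 and Lef1 rose 19.6-fold and 5.06-fold, and the target Axin2 1.38-fold. Notch genes were 3 up and 7 down of 13, with the ligand Jag1 at 71.9, 68.4 and 65.2 CPM in GS and 8.19, 7.71 and 6.06 CPM in GS_diff2 (9.34-fold lower) and the ligand Dll1 4.29-fold higher. Guidance genes were 5 up and 15 down of 24, and retinoic acid genes 2 up and 10 down of 14.

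Immediate early genes, which cells switch on quickly after a stimulus, rose in 3 and fell in 20 of 27 (median -0.97). GS had the highest sum, 4443 to 4645 CPM, against 2172 to 2233 CPM in GS_diff2. GS_diff1 summed to 2269 to 2308 CPM and RCF to 2505 to 2536 CPM. Against GS_diff1, 12 members were higher and 10 lower (background 32.1% higher and 31.5% lower). Egr1 was at 636, 608 and 649.6 CPM in GS and 122, 116 and 119 CPM in GS_diff2 (5.31-fold lower, adjusted p = 4.84e-30), Egr2 fell 9.99-fold and Fos 5.79-fold, and Fosl1, Fosb (2.06-fold) and Jun (1.2-fold) rose. Inflammation genes were 6 up and 15 down of 27: Icam1 was at 602, 604 and 608 CPM and 153, 153 and 149 CPM (3.99-fold lower), Ccl2 fell 2.09-fold, and Il1rl1 (the ST2 receptor), Cxcl10 and Lcn2 rose 24.2-fold, 2.98-fold and 2-fold. Interferon genes were 14 up and 8 down of 31 (median 0.14), with the immunoproteasome gene Psmb9 up 2.88-fold and the antiviral genes Ifit2 and Rsad2 down 6.15-fold and 5.2-fold. Complement genes were 6 up and 6 down of 14, with C3 2.04-fold lower.

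The design also sets CMM plus EGM2 beside CMM alone, and both contrasts came from the same fit. The 2 comparisons share the GS_diff2 libraries, so each gene's own values are given and no overlap is tested. In GS_diff2 against GS_diff1, 9167 of 14399 genes were called (63.7%), 4628 higher (32.1%) and 4539 lower (31.5%). A change of 2-fold or more was called upward in 1538 (10.7%) and downward in 1197 (8.31%). Adcyap1r1, Nptx1, Ace, Gja4, Tgfbi and Lgi2 were the 6 genes highest in GS_diff2 against both groups. Against GS_diff1, Ace was 342-fold higher (adjusted p = 6.19e-27), Lgi2 43.6-fold (adjusted p = 2.38e-17) and Tgfbi 64.4-fold (adjusted p = 8.64e-07). Among the 6 lowest against both were Slc24a3, Mal2, Amn, Atp2a3 and Car3, a muscle carbonic anhydrase at 2.62, 2.83 and 2.06 CPM in GS, 29.9 ± 1.7 CPM in GS_diff1 and 0 counts in all GS_diff2 libraries, at least 16.9-fold lower than GS. Some genes moved against GS in one direction and against GS_diff1 in the other. Il1rl1 was at 3.72, 3.47 and 3.15 CPM in GS, 84.5, 85.1 and 83.1 CPM in GS_diff2 and 93.8 ± 1.15 CPM in GS_diff1, so it was 24.2-fold above GS and 1.11-fold below GS_diff1 (adjusted p = 0.0341). The citron kinase Cit (17.8 ± 1.4, 64.8 ± 2.33 and 84.9 ± 5.38 CPM in GS, GS_diff2 and GS_diff1), Cdc7 and Cdh24 did likewise. In the reverse case, Akr1cl, an aldo-keto reductase, was at 47.4 ± 2.23 CPM in GS, 1.82 ± 0.369 in GS_diff2 and 0.784 ± 0.23 in GS_diff1, and Ccl20 and Galnt14 followed the same order.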

How the data were processed

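RNA sequencing counts from 12 libraries (4 groups of 3) were used, and 6 of them make up the comparison of GS_diff2 with GS. The deposited table holds raw read counts per gene for every library, which the authors made from reads of Ovation RNA-seq System v2 libraries, per the labels' protocols. The submitters' processing notes name Bowtie 0.12.2 and the builds Rnor_6.0 and mm8, without their roles. Not given in the sources used here were the counting program, its annotation, whether strand was used, and how reads matching near-identical genes were treated.

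From the counts, 14399 of 32545 genes passed edgeR's filterByExpr and were tested with edgeR 4.0.16 (R 4.3.3): TMM scaling, a robust quasi-likelihood fit with 1 term for each of 4 groups over all 12 libraries (8 residual degrees of freedom), two-sided contrasts, and Benjamini-Hochberg adjustment over all tested genes with a threshold of 0.05. Adjusted p-values in the text are from this fit. Folds against a group with 0 counts in every library use a floor of 3 counts in each library and cover counting error only. The script was checked on simulated counts with a fixed spread, in which few genes changed, up and down alike. That check does not cover data in which most genes differ, as here. Replicate numbers in the labels recur across groups, but the deviations of same-numbered libraries correlated by -0.045 to 0.076, so the fit has no pairing. All libraries of a group differed by more than sampling noise, and each was counted once.

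The members and gene lists were chosen with earlier results of these data known. Named genes were the 2 viral factors, the 12 largest rises and 12 largest falls with at least 10 CPM in the higher group and no overlap of libraries, up to 3 rises and 3 falls in each list with at least 1 CPM, some markers named whatever their values, the 6 genes highest and 6 lowest against both GS and GS_diff1, and the 4 in each direction that moved in opposite directions against the 2 groups. Symbols without a name were passed over. Promoters came from RefSeq, assembly GRCr8. Alternatives were RLE size factors, library totals, 2 other filters on low counts, DESeq2 1.42.0, limma-voom (limma 3.58.1), a fit of only 2 groups, a replicate block, and leaving out each library. Some genes that the naming rule selects are not reported here.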

Additional observations from a re-analysis of the deposited data

How the results depend on the processing

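Of 112 counts of called genes recomputed under 20 alternatives, 2215 pairs of count and alternative stayed within 1.5 times and 25 did not. Over all genes, GS_diff2 against GS had 9398 (at least 1 CPM in 3 libraries) to 9819 calls (no filter) with all libraries, and 9112 to 9757 with 1 library left out. Scaling by library totals moved the median log2 of all genes to 0.0799 and gave 5456 higher and 4156 lower calls. It also left 1 respiratory chain gene and 3 endoplasmic reticulum stress genes lower, in place of 5 and 5. The stricter filter left 3 epithelial genes higher in place of 5. Without a filter, 2 endoderm genes (in place of 1) and 1 cholesterol efflux gene (in place of 2) were higher. With only the 2 groups in the fit, 0 leukocyte genes were lower in place of 2. Leaving out 1 library gave 1 to 2 higher endoderm genes, 1 to 2 higher neural genes, 1 to 2 higher cholesterol efflux genes, 0 to 1 lower glycolysis genes (1 without GS replicate 1) and 3 to 5 higher guidance genes. The log2 fold change of Ptprc, which rests on a few counts in GS_diff2 replicate 1, was 0.0 to 2.34 when a library was left out and was never called. The replicate block gave 9538 calls against GS and 9054 against GS_diff1. It changed no call against GS of a gene named in the report. Calls of single genes against GS_diff1 were not recomputed under the alternatives. The cause of these shifts was not tested, apart from fewer genes or samples where an alternative removes them. Genes of a few counts, such as Kdr or Nppa, are below what this depth can compare. No fold is printed for Slc24a3, Cyp4b1, Inhbe, Atp2a3, Tdh, Lgr5, Hcn4, Fbn2, Myoz2 and Tnni3, whose lower group has few counts and whose fitted fold moved by over 1.5 times when 1 library was left out.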

Other observations

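Several groups that the report only counts hold members of interest. Imprinted genes, expressed from one parental copy, were 3 up and 6 down of 12: beside Igf2, the maternally expressed receptor Igf2r, which clears it, was at 913, 1013 and 874 CPM in GS and 1047, 1060.2 and 1051 CPM in GS_diff2 (1.13-fold (log2 0.17 ± 0.036, adjusted p = 0.000289) higher). Peg3, a paternally expressed zinc finger gene, was at 185, 208 and 173 CPM in GS and 33.6, 33.9 and 33.6 CPM in GS_diff2 (5.6-fold (log2 -2.48 ± 0.055, adjusted p = 2.59e-24) lower), and Grb10, an inhibitor of insulin signalling, fell 1.86-fold. The groups were apart in each.

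Among enzymes that make retinoic acid, the isoforms parted. Aldh1a3 was at 0.551, 0.81 and 0.258 CPM in GS and 8.82, 8.85 and 7.47 CPM in GS_diff2 (15.2-fold higher, adjusted p = 2.91e-08), whereas Aldh1a2 was at 2.11, 0.81 and 1.93 CPM in GS and had 0 counts in GS_diff2, at least 10.9-fold lower. In the Notch list, the glycosyltransferase Lfng was at 4.96, 3.82 and 4.57 and 22.2, 23.3 and 23.1 CPM (5.13-fold higher), while the targets Hes1 and Hey2 fell 1.97-fold and 2.12-fold. Factors of the mesenchymal transition were 3 up and 4 down of 8, with Snai2 at 71.8, 68 and 63.2 CPM in GS and 17.5, 21.1 and 18.2 CPM in GS_diff2 (3.57-fold lower) and Twist1 1.63-fold higher. Of 985 tested genes with a transcription factor family in the deposited table, 214 were higher and 410 lower (median -0.14), against 33.3% and 33.7% of all genes. Of 13 small nuclear RNA genes tested, 9 were higher and 1 lower, and 6 of 7 mitochondrial transfer RNA genes were higher and 0 lower. Levels were low. Small nuclear RNA genes summed to 5.21 to 5.54 CPM in GS and 9.85 to 12.04 CPM in GS_diff2. Mitochondrial transfer RNA genes summed to 3.93 to 4.82 CPM in GS and 13.5 to 15.6 CPM in GS_diff2. In both classes GS summed lowest, also against GS_diff1 and RCF.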
